A study of Saccharomyces cerevisiae W303 with 24 samples.

Results

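Disome XIII is a haploid budding yeast strain of the W303 background and mating type a that carries an extra copy of chromosome XIII. It was measured in 2 versions, with the UBP6 gene intact (disome XIII) and with UBP6 deleted (disome XIII-ubp6Δ), and both were taken by their sample titles, which gave 2 of the 24 dual-colour expression arrays of the series. The other arrays held 11 other disomes and 11 other disomes-ubp6Δ, in which the duplicated chromosome was XVI, XV, XIV, XII, XI, X, IX, VIII, V, II or I, and they served as the comparison for the same genotype. All cultures grew in rich medium (YEPD) at 30 degrees, and every RNA was set against a reference RNA labelled wild-type. The extra chromosome XIII is held by the HIS3 and KanMX6 markers, both inserted between YMR017W and YMR018W. The wild-type strain of the study carries HIS3 and KanMX6 too, in place of ADE1 and LYS2, so all disomes differ from it at these genes as well as by a chromosome. CaURA3 is carried by all strains grown in rich medium, and it replaces UBP6 in the ubp6Δ strains. Each strain had 1 array, and the labels name no separate cultures, so p-values rest on the spread among different disomes and not on repeats of disome XIII.

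Ubp6 is a deubiquitinating enzyme that sits on the proteasome, where it trims ubiquitin from substrates and slows their breakdown; loss of Ubp6 speeds proteasomal degradation. A duplicated chromosome adds a second template for each of its genes, so mRNA that follows copy number doubles, which is 1 unit on the log2 scale, unless a gene's own regulation sets its level. Chromosome XIII encodes, among others, the high-affinity phosphate transporter Pho84, the stress regulator Msn2, the oxidative stress regulator Yap1, trehalose synthase subunits Tsl1 and Tps3, and many mitochondrial proteins. The comparison asked which transcripts set disome XIII apart from strains with another chromosome duplicated, and which of these differences were shared by the versions with and without UBP6.

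All values below are log2 ratios of strain over reference. The labels put the strain in Cy5 on every array, but on the ubp6Δ arrays the deposited value table, the duplicated chromosome and the deleted markers ran opposite to that, so the sign of those arrays was turned here, against the label. The array of disome XIII gave 6132 measured genes and that of disome XIII-ubp6Δ 6011, against 5288 to 6074 in the other disomes and 5837 to 6081 in the other disomes-ubp6Δ. Their median Cy3 intensity was 2358 and 963, and the SD between the paired spots of a probe was 0.0659 and 0.0850 on the log2 scale.

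The deleted gene was checked first. On the array of disome XIII, UBP6 had a processed intensity of 3790 in the strain and 4075 in the reference, a log2 ratio of −0.10. On the array of disome XIII-ubp6Δ, UBP6 was at 103.5 in the strain and 43.35 in the reference, so it was low in both dyes, and the log2 ratio was 1.35 (0.60 to 3.78 on the other ubp6Δ arrays). The strain labelled ubp6Δ therefore lacked UBP6 mRNA at the level of disome XIII, and its reference, labelled wild-type, did as well. LYS2, which the wild-type strain lacks, was at 2.94 and 2.72 on the 2 arrays. The a-factor genes MFA1 and MFA2 and the receptor gene STE2 of a cells were bright in both strains, with strain intensities of 2313 to 6682. The α-factor genes MF(ALPHA)1 and MF(ALPHA)2 were at 15.6 to 60.7 and the α-cell receptor gene STE3 at 169.3 and 60.8. Other markers were less clear-cut. SAG1, a gene of α cells, was at 751.4 and 487.3, near AGA2 of a cells at 503.4 and 661.8. The a-cell genes STE6 and BAR1 were at 7365 and 7078 and at 1740 and 1149.

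Genes of chromosome XIII had a mean log2 ratio of 0.99 in disome XIII (SD 0.486 over genes) and of 0.90 in disome XIII-ubp6Δ (SD 0.556). The means of the other 15 chromosomes lay between −0.13 and 0.02 on the first array and between −0.10 and 0.05 on the second. Both strains thus carried the labelled chromosome at the RNA level, with no second chromosome near it. Among the 12 disomes the mean of disome XIII was the highest (0.68 to 0.94 in the others, one-sided exact permutation p = 0.0833, the smallest that 12 strains allow). Among the disomes-ubp6Δ it lay in rank 5 of 12, within the range of 0.59 to 0.98 of the others (p = 0.417, the same exact test). Disomes I to XII lay on another slide than disome XIII, with median Cy3 intensities of 724 to 990 against 2358. The rank of disome XIII against those strains cannot be told apart from the slide.

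**Figure D1:**
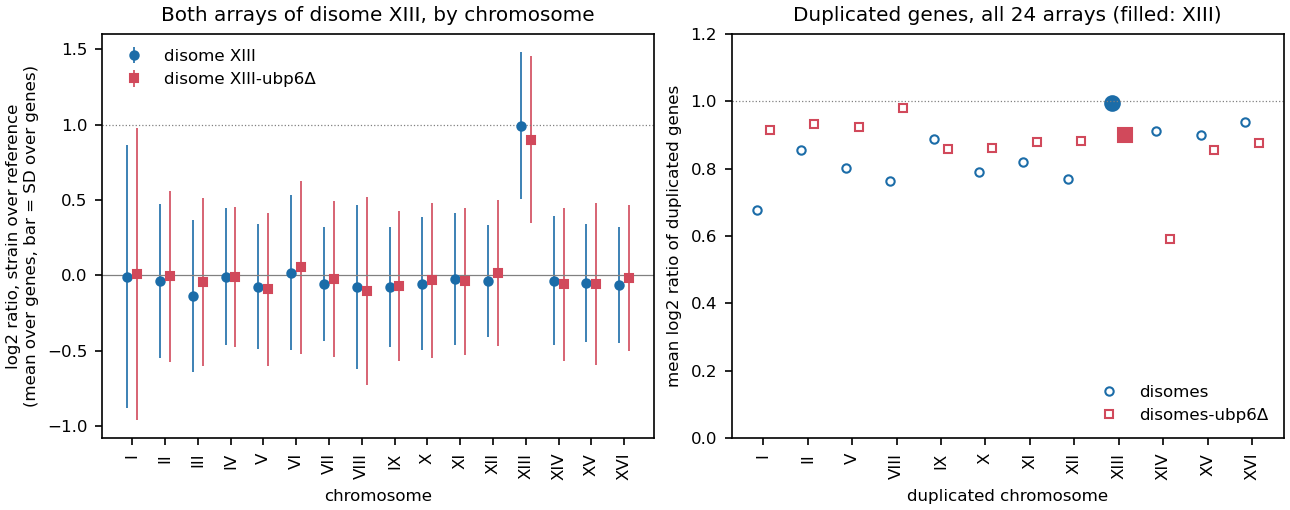
Mean log2 ratio of strain over reference by chromosome on the arrays of disome XIII and disome XIII-ubp6Δ, with the SD over genes as bars (left), and mean of the duplicated genes on each of the 24 arrays, with disome XIII filled (right). Chromosome XIII stands at 0.99 and 0.90 while the other chromosomes lie between −0.13 and 0.05.

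Outside chromosome XIII the log2 ratios spread with an SD of 0.444 over 5648 genes in disome XIII and of 0.526 over 5536 genes in disome XIII-ubp6Δ. Of these genes, 85 were above 1 and 95 below −1 in disome XIII. In disome XIII-ubp6Δ, 168 were above 1 and 121 below −1. The share beyond 1 in either direction was 3.19% and 5.22%.

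Of 484 open reading frames on chromosome XIII on the array, 444 could be tested against the other disomes; the others were measured on too few arrays. The test, limma with a mean for each genotype, takes the shift of disome XIII, which is the mean over both arrays of the difference from the other disomes of the same genotype, and values of a gene in a disome that duplicates it are left out. Adjusted p-values (Benjamini-Hochberg) run over all 5560 genes tested. On chromosome XIII, 322 genes were higher at an adjusted p of 0.05 and 0 were lower, and the 322 are 72.5% of those tested. With the array of disome XIII left out the count was 177, and with that of disome XIII-ubp6Δ left out it was 228.

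The same shift, read for a duplicated gene, is its copy-number response. The 444 responses had a median of 0.99 and quartiles of 0.76 and 1.18, and 361 of them (81.3%) lay between 0.5 and 1.5. Another 53 were below 0.5, of which 16 were below 0, and 30 were above 1.5. The arms had close medians, 1.00 over 128 genes of the left arm and 0.97 over 316 genes of the right arm. In consecutive windows of 20 genes the median lay between 0.76 and 1.17. The exception was the end of the right arm, where the last 4 genes measured, from YMR320W to YMR325W, had a median of −0.49. The 10 genes around the marker insertion had a median of 0.85.

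**Figure D2:**
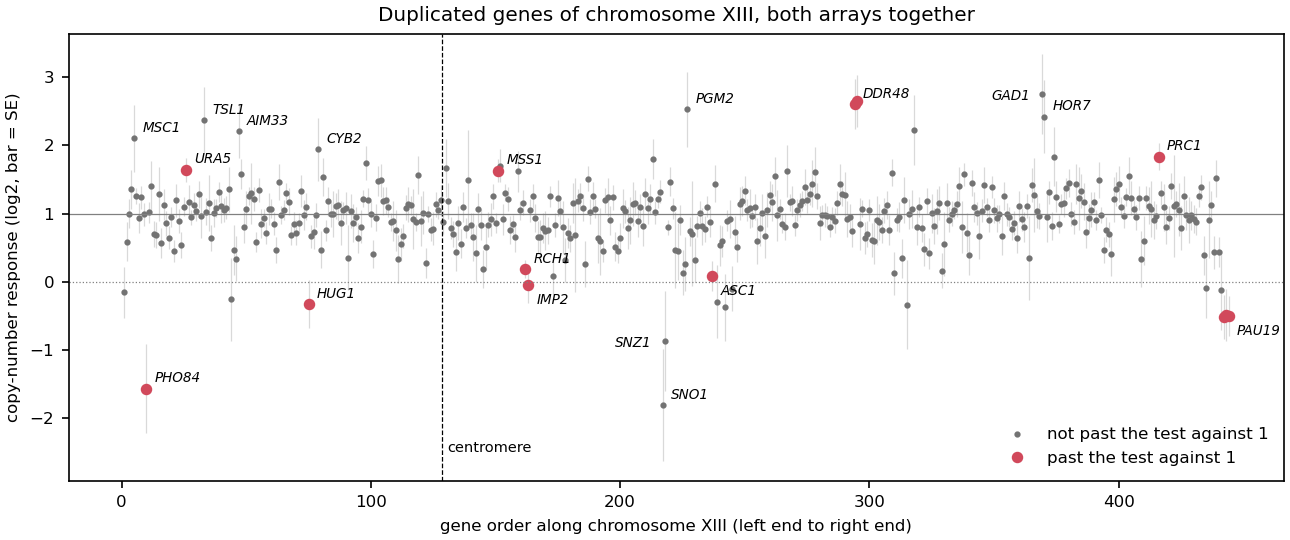
Copy-number response (log2, mean of both arrays minus the other disomes, with its standard error) of the 444 measured genes of chromosome XIII in gene order, with the centromere as a dashed line and genes that differed from 1 in red. Most responses lie between 0.5 and 1.5, and PHO84 and the right end fall below 0.

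A response was tested against 1, with p-values adjusted over the duplicated genes of all 12 chromosomes. On chromosome XIII, 8 genes responded by less than 1 and 5 by more than 1. Over the duplicated genes of all 12 chromosomes the corresponding shares were 2.86% and 0.739%, and 8 of 444 is 1.80%. With each disome and its ubp6Δ derivative held as a replicate block the counts were 3 and 2, and with the arrays of disome XV left out they were 13 and 9. They were 3 and 1 without the array of disome XIII, 3 and 5 without that of disome XIII-ubp6Δ, and 8 above 1 without the arrays of disome XII.

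PHO84, the high-affinity phosphate transporter gene, went furthest against its copy number among those 8. It was at −1.86 in disome XIII, where the other disomes ranged from −1.21 through a median of −0.21 to 0.26. In disome XIII-ubp6Δ it was at −2.40, where the other disomes-ubp6Δ ranged from −3.58 through a median of −0.21 to 0.10. Disome XIII lay below all other disomes, and disome XIII-ubp6Δ lay within the range of its group, above ubp6Δ strains XV (−3.58) and X (−3.22). The response was −1.57 ± 0.655 (SE, adjusted p against 1 = 0.0265 by limma). PHO84 did not pass with the replicate block (adjusted p = 0.0770), without the array of disome XIII (0.147) or without that of disome XIII-ubp6Δ (0.163). RNA of a whole culture cannot tell fewer cells with a transcript from less of it in each cell.

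Other genes that did not follow their copy number had varied roles. ASC1, which encodes a ribosome-bound scaffold protein of the small subunit, was at −0.04 and 0.10 in the 2 strains (response 0.08, adjusted p = 0.0235). It was the exception among 10 cytosolic ribosomal protein genes on the chromosome, whose median response was 0.93. The other 9 were higher, beside 72.5% of all tested genes of the chromosome. IMP2, for a subunit of the mitochondrial inner membrane peptidase, was at −0.13 and 0.11 (response −0.05, adjusted p = 0.021). The DNA damage response gene HUG1 was at −0.14 and 0.06 (response −0.33, adjusted p = 0.0341). HUG1 was dim, with strain intensities of 101 and 163, and an effect of low signal on its ratio was not tested. RCH1 was at 0.47 and 0.35, inside the range of the other disomes on both arrays (response 0.19, adjusted p = 0.001). The remaining 3 were YMR321C (−0.48 and −0.51), the seripauperin gene PAU19 (−0.13 and −0.29) and SNO4 (0.06 and 0.42), near the end of the right arm. PAU19 and SNO4 belong to families of near-identical genes at chromosome ends, so probes for them may read other members. SNO4 was also dim, with strain intensities of 130.1 and 99.57.

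The 5 genes with a response above 1 included DDR48, a stress-induced gene named for its induction by DNA damage. DDR48 was at 2.88 in disome XIII, against −0.29 to 1.49 (median 0.48) in the other disomes. In disome XIII-ubp6Δ it was at 2.59, against −1.05 to 0.62 (median −0.29) in the others. Both arrays stood clear of their groups, with a response of 2.61 ± 0.368 (adjusted p against 1 = 0.0155 by limma, 0.0672 without the array of disome XIII and 0.155 without that of disome XIII-ubp6Δ). YMR173W-A overlaps DDR48 and had nearly the same values, 2.85 and 2.62, and the 2 cannot be separated. PRC1, which encodes the vacuolar carboxypeptidase Y, was at 2.24 and 1.498 (response 1.83, adjusted p = 0.019). URA5, of pyrimidine synthesis, was at 1.96 and 1.07 (response 1.64, adjusted p = 0.040), and MSS1, of mitochondrial tRNA modification, was at 1.61 and 1.19 (response 1.63, adjusted p = 0.032).

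Several stress and carbon storage genes had responses as large without passing the test against 1. GAD1, for glutamate decarboxylase, was at 2.57 and 2.97 and had the largest response on the chromosome, 2.75 ± 0.585 (adjusted p against 1 = 0.0998 by limma). PGM2, a phosphoglucomutase gene, was at 1.99 and 2.05, HOR7, a gene induced by osmotic stress, at 2.67 and 3.09, and TSL1, for a regulatory subunit of trehalose synthase, at 2.57 and 2.27. Their responses were 2.53, 2.42 and 2.37 (adjusted p = 0.134, 0.160 and 0.129). The other members of the 10 highest were MSC1 (2.10), AIM33 (2.21), YMR196W (2.22) and CYB2 (1.94), the gene of mitochondrial lactate dehydrogenase. GAD1, PGM2, HOR7 and TSL1 were each highest of their genotype on both arrays.

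At the low end, SNO1 and its divergent neighbour SNZ1, of vitamin B6 synthesis, did not pass the test against 1. SNO1 was at 0.20 and −1.18, against 0.40 to 4.19 and −0.75 to 2.87 in the other strains, and was thus the lowest on both arrays. SNO1 was dim, with strain intensities of 67.48 and 42.47. Its response was −1.81 ± 0.815 (adjusted p = 0.0582). SNZ1 was at 0.64 and −0.55, against 0.04 to 2.88 and −0.17 to 3.20 in the other strains. SNZ1 ranked 6 among the disomes and was the lowest only among the disomes-ubp6Δ (response −0.87, adjusted p = 0.175). ADE17, of purine synthesis, was at −0.23 and −0.43 (response −0.38, adjusted p = 0.133). The low genes YMR193C-A (−0.34) and SHH3 (−0.29) rested on arrays that differed from each other, at −0.03 and 1.39 and at 0.26 and 0.63.

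Of 11 regulator genes named on chromosome XIII, 7 were higher than in the other disomes, beside 72.5% of all genes of the chromosome. YAP1 was at 1.13 and 1.16 (response 0.99, adjusted p against the other disomes = 2.35e-06) and MSN2 at 1.18 and 0.57 (response 1.25, adjusted p = 1.82e-05). ARG81 and MCM1, which act together on arginine genes, had responses of 1.03 and 0.76 (adjusted p = 0.000766 and 0.0134), while ARG80 had 0.75 (adjusted p = 0.121). The copper regulator MAC1 (1.26), the galactose repressor GAL80 (0.75) and the gluconeogenic activator CAT8 (1.21) also rose. HOT1, an activator of osmotic stress genes, had a response of 0.75 (adjusted p = 0.0533), MOT3 had 0.45 (adjusted p = 0.102) and SOK2, at 0.27 and 0.03, had 0.18 (adjusted p = 0.831).

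Genes whose products work in complexes followed copy number at the RNA level. Of 57 tested subunits of stable complexes on the chromosome, from the study's own list, 50 were higher and 0 lower, with a median response of 1.02. This list was used for its membership, and 72.5% of all chromosome XIII genes were higher. The proteasome genes PRE5 and PRE8 had responses of 1.38 and 1.09, and the Hsp90 chaperone gene HSC82 one of 1.13. All 9 ribosome biogenesis genes were higher (median response 1.07). The 8 genes of mitochondrial ribosomal proteins were all higher with a median of 1.51, and 5 of 6 genes of the TCA cycle and respiratory chain were higher, also with a median of 1.51. Among the latter, COX7 was at 1.92 and 1.78, NDE1 at 2.24 and 1.70 and NDI1 at 1.64 and 1.52. Of 8 ergosterol genes 4 were higher, with a median response of 0.75.

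Outside chromosome XIII, 46 genes were higher in disome XIII than in the other disomes and 67 were lower, out of 5116 tested. That is 0.899% higher, 1.31% lower and 2.21% in either direction. These p-values were adjusted together with those of the chromosome XIII genes, most of which passed; adjusted over the other chromosomes alone, 6 genes were higher and 5 lower. The 6 were PNS1, GRE2, YNL134C, PHM7, TPS2 and SHC1, and the 5 were SPL2, PRM5, EUG1, YGL039W and YOL014W. Counts of gene list members given below use the joint adjustment. Of the members counted outside chromosome XIII, only SPL2, GRE2, PHM7, TPS2 and EUG1 passed over the other chromosomes alone. At an unadjusted p under 0.05, 233 were higher and 309 lower. Without the array of disome XIII 19 genes passed, without that of disome XIII-ubp6Δ 43, and without the arrays of disome XV 172. Against strains of the same slides only, 59 passed (13 higher and 46 lower), and with a replicate block for each disome 64 passed (26 higher and 38 lower), all of them among the 113.

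All 113 genes moved the same way on both arrays. Of them 37 were the highest and 51 the lowest of their genotype on both arrays, and the smallest shift that passed was 0.45 in size. Over all genes outside chromosome XIII, 114 were the highest and 159 the lowest on both arrays. The genes were called on these same arrays, so the shared direction and the ranks are no separate evidence. A shift of more than 0.5 in the same direction on both arrays, with no test, was seen in 137 genes upward (2.68%) and 201 downward (3.93%). Opposite shifts beyond 0.5 were seen in 33 genes that were up in disome XIII and down in disome XIII-ubp6Δ and in 31 genes the other way round. The deviations of the 2 arrays had a Pearson r of 0.370 across 5116 genes outside chromosome XIII and of 0.560 across the duplicated genes. Genes are not independent replicates, and the 2 arrays share the karyotype but neither slide nor dye orientation as found here.

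**Figure D3:**
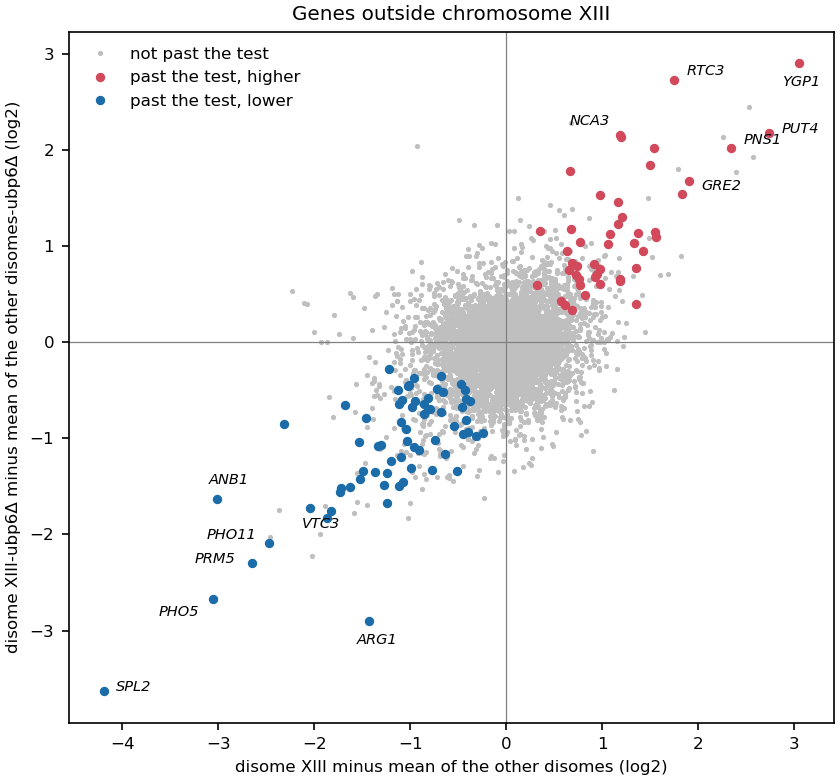
Deviation of each gene outside chromosome XIII from the mean of the other disomes of the same genotype (log2), in disome XIII (horizontal) and in disome XIII-ubp6Δ (vertical), with genes past the test coloured. The phosphate genes SPL2, PHO5, PHO11 and VTC3 lie at the lower left, and YGP1, PUT4 and PNS1 at the upper right.

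Genes of phosphate starvation had the lowest median shift among the gene lists outside chromosome XIII. Cells short of phosphate switch on the transporter Pho84, secreted acid phosphatases, the small inhibitor Spl2 of a low-affinity transporter and the Vtc complex, which makes polyphosphate. Outside chromosome XIII, 8 of 25 tested members of the list were lower and 1 was higher, with a median shift of −0.58 against −0.03 over all 5116 genes. The share lower over all genes was 1.31%. Of the 8, SPL2 alone passed when p-values were adjusted over the other chromosomes only. Without the array of disome XIII 0 of them passed as lower and without that of disome XIII-ubp6Δ 1 did, 5 passed with the replicate block, and 4 passed against strains of the same slides.

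SPL2 showed the largest shift of any gene that passed. It was at −4.57 in disome XIII, where the other disomes ranged from −0.97 through a median of −0.45 to 0.30. In disome XIII-ubp6Δ it was at −5.37, where the others ranged from −4.45 through −1.21 to 0.09. Both arrays lay below their whole group, with processed intensities of 735.7 in disome XIII and 17500 in its reference. The shift was −3.91 ± 0.782 (SE, adjusted p = 0.00123 by limma, 0.0237 over the other chromosomes alone), and −3.34 against strains of the same slides.

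The acid phosphatase genes were low as well. PHO5 was at −4.33 and −4.03, below the ranges of −2.57 to 0.10 and −3.51 to 0.81 in the other strains (shift −2.86, adjusted p = 0.0434, and 0.060 with the replicate block). PHO11 was at −3.65 and −2.83, below −2.39 to 0.01 and −1.91 to 1.09 (shift −2.28, adjusted p = 0.015). PHO12 was at −2.72 and −2.10, with a shift of −1.64 (adjusted p = 0.0241). PHO11 and PHO12 are near-identical copies, so their probes may read each other's RNA. PHO8, for the vacuolar alkaline phosphatase, was at −1.23 and −1.11 (shift −0.80, adjusted p = 0.036).

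Of the polyphosphate polymerase subunits, VTC3 was at −2.37 and −2.50, with a shift of −1.88 (adjusted p = 0.0144). VTC1 was at −1.83 and −1.79 (shift −1.28, adjusted p = 0.017) and VTC4 at −1.55 and −1.79 (shift −1.27, adjusted p = 0.037). In disome XIII each of the 3 lay below all other disomes, whereas in disome XIII-ubp6Δ each lay within the range of its group. PHO87, a low-affinity phosphate transporter gene, moved the other way, at 1.26 and 1.04, the highest of both groups (shift 0.81, adjusted p = 0.020).

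Further members were low without passing the test. The sodium-phosphate transporter gene PHO89 was at −2.58 and −2.06 (adjusted p = 0.345), and GIT1, for a glycerophosphoinositol transporter, at −3.16 and −2.54 (adjusted p = 0.146). PHM6 was at −3.37 and −3.33 (adjusted p = 0.33) and PHO81, for an inhibitor of the Pho80-Pho85 kinase, at −1.02 and −1.28 (adjusted p = 0.363). These genes also varied widely among the other strains. The phosphate genes were not low in disome XIII alone. In disome XV-ubp6Δ, SPL2 was at −4.23, VTC3 at −2.51 and PHO5 at −3.51. In disome X-ubp6Δ the same genes were at −4.45, −2.57 and −3.15. In disome XVI-ubp6Δ, SPL2 was at −2.82 and PHO5 at −2.86, with VTC3 at −0.37. All 3 strains lay on the slide of disome XIII-ubp6Δ. In disomes X, XV and XVI with UBP6 intact, SPL2 was at −0.97, −0.92 and −0.93 and PHO5 at −1.71, −2.41 and −2.57. VTC3 was at −0.84, −1.22 and 0.01 in these 3 disomes. Disome XIII was lower than each of them for all 3 genes.

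**Figure D4:**
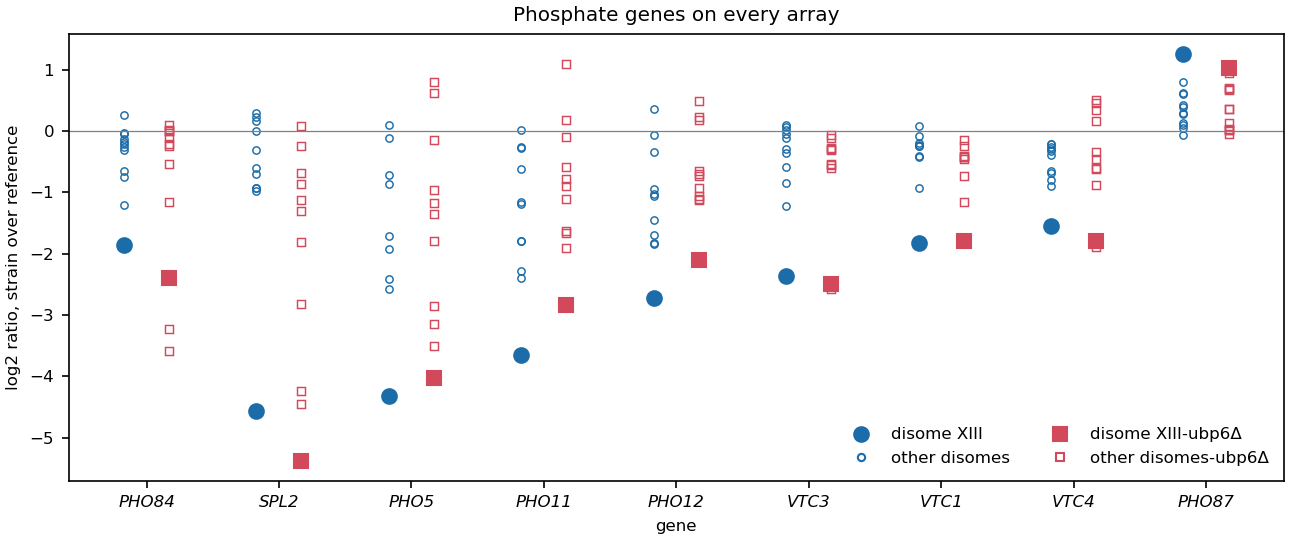
Log2 ratio of strain over reference of 9 phosphate genes on every array, other disomes and other disomes-ubp6Δ as open points and the 2 disome XIII strains filled, with a gene's own duplicated values left out apart from PHO84 in disome XIII. SPL2 reaches −4.57 and −5.37 and PHO5 −4.33 and −4.03, while PHO87 stands at 1.26 and 1.04.

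General stress genes supplied 8 of the 46 genes that were higher. These genes are switched on by Msn2 and Msn4 under many stresses, and MSN2 itself lies on chromosome XIII. Outside that chromosome 8 of 85 tested members were higher and 0 lower, with a median shift of 0.27 against −0.03 over all genes. The share higher over all genes was 0.899%. Of the 8, only GRE2, PHM7 and TPS2 passed when p-values were adjusted over the other chromosomes alone. On chromosome XIII 10 of 11 members were higher, beside 72.5% of all tested genes of that chromosome. Their median response was 2.10 against 0.99 over the chromosome. The count of 8 fell to 2 without the array of disome XIII, to 1 without that of disome XIII-ubp6Δ, to 3 against strains of the same slides and to 4 with duplicated values kept in the other disomes. The count of 10 fell to 4 without either array.

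YGP1, a secreted glycoprotein gene induced by nutrient limitation, had the largest upward shift. It was at 3.45 in disome XIII, against −1.44 to 1.32 (median 0.68) in the other disomes. In disome XIII-ubp6Δ it was at 2.87, against −2.27 to 1.65 (median 0.47) in the others. Both values were clear of their groups, with a shift of 2.98 ± 0.747 (adjusted p = 0.0106 by limma). The adjusted p of YGP1 was 0.0985 over the other chromosomes alone and 0.172 against strains of the same slides, where the shift was 2.83.

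GRE2, a reductase gene induced by stress, had the smallest standard error among the 12 highest and 12 lowest genes. It was at 1.96 and 1.52, above the ranges of −0.61 to 0.29 and −0.61 to 0.63 in the other strains. Its shift was 1.79 ± 0.234 (adjusted p = 0.0005 over the other chromosomes alone), and it passed under all 24 alternatives run for it, as did PNS1 and PRM5. The dubious frame YOL150C overlaps GRE2 and was called with it.

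Genes of the trehalose synthase complex were higher on and off the duplicated chromosome. Trehalose is a storage sugar that protects cells under stress, made by a complex of Tps1, Tps2 and the regulatory subunits Tsl1 and Tps3. TPS2, on chromosome IV, was at 1.30 and 1.36, above −0.17 to 0.86 and −0.37 to 0.63 in the others (shift 1.20 ± 0.245, adjusted p = 0.0012). TPS1, on chromosome II, was at 0.93 and 1.14 (shift 0.77, adjusted p = 0.040). TPS3, on chromosome XIII, was at 1.45 and 1.25, next to TSL1 above. The other 15 of 17 tested members of the trehalose and glycogen list off the chromosome did not pass (median shift 0.35), with 0 past the test without either array of disome XIII and 1 without the arrays of disome V, X, XI, XIV or XVI or with the replicate block.

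Redox and osmotic stress genes held a few members that rose, where 0.899% of all genes outside chromosome XIII were higher. PRX1, for the mitochondrial peroxiredoxin, was at 1.75 and 1.27 (shift 1.33, adjusted p = 0.0078), and AHP1, for a cytosolic peroxiredoxin, at 1.87 and 1.03 (shift 1.35, adjusted p = 0.0413). AHP1 ranked 2 among the disomes, below a strain at 1.91, and its adjusted p was 0.107 with the replicate block. Together with GRE2 they made up 3 of 44 tested members of the oxidative stress list (median shift 0.11), and 1 passed without the array of disome XIII or against strains of the same slides. All 4 members on chromosome XIII, ATR1, TSA1, YAP1 and CCS1, were higher, with a median response of 0.99. Of all tested genes of that chromosome 72.5% were higher, and their median response was 0.99 too. Of 25 tested Yap1 target genes elsewhere, GRE2 and AHP1 were higher and MCH5 lower. GPD1, for the glycerol-producing enzyme, was at 1.00 and 1.27 (shift 1.31, adjusted p = 0.0131), and RTC3 was at 2.67 and 2.83 (shift 2.25, adjusted p = 0.0114).

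Strongly stress-induced genes did not all differ from the other disomes. HSP12 was at 3.74 and 3.15, but the other disomes reached 4.60 (adjusted p = 0.149). DDR2 was at 2.33 and 3.18 (adjusted p = 0.129) and the catalase gene CTT1 at 1.35 and 1.75 (adjusted p = 0.224). The heat shock genes HSP104 (−0.13 and 0.23) and SSA4 (−0.35 and 0.00) were near the reference.

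**Figure D5:**
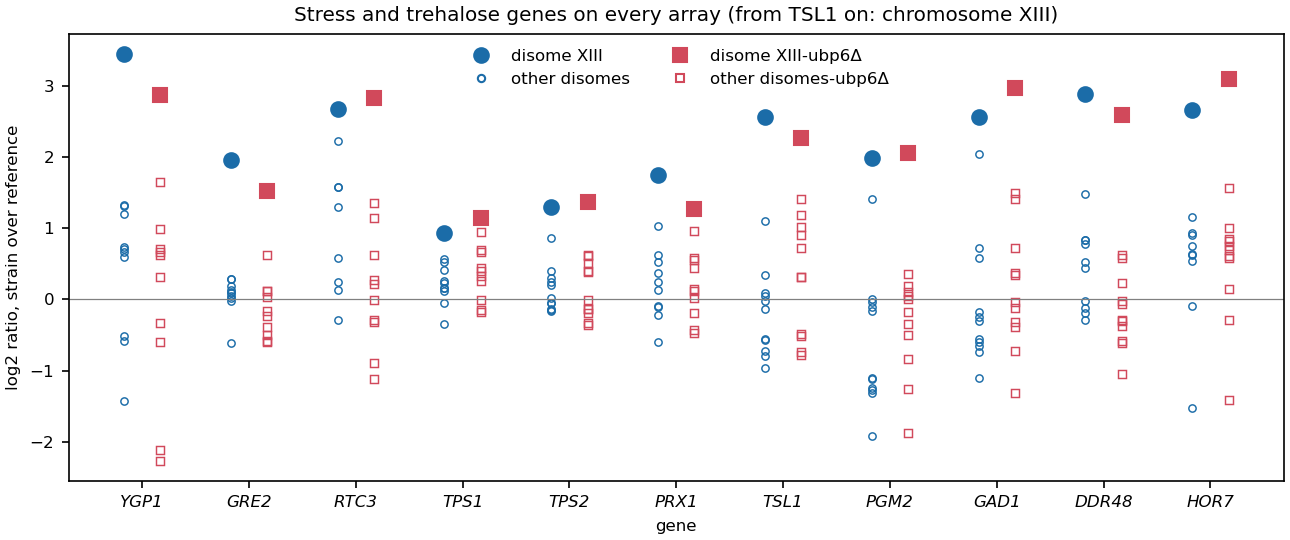
Log2 ratio of strain over reference of stress, trehalose and redox genes on every array, outside chromosome XIII (YGP1, GRE2, RTC3, TPS1, TPS2 and PRX1) and on it (TSL1, PGM2, GAD1, DDR48 and HOR7), with the 2 disome XIII strains filled and the duplicated values of other disomes left out. Both filled points lie above the open points of their genotype for each of these genes, for example 3.45 and 2.87 for YGP1.

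Other genes among the 12 highest had separate roles. PNS1, for a membrane protein of the choline transporter-like family, was at 1.83 and 1.87, against −1.82 to 0.33 and −0.81 to 0.56 in the other strains (shift 2.18, adjusted p = 0.0004). PUT4, the proline permease gene, was at 1.66 and 1.53, against −2.30 to 0.24 and −2.16 to 0.58 (shift 2.46, adjusted p = 0.00296). Both genes stood clear of the other strains on both arrays. PUT4 was the sole member that passed of 32 tested genes under nitrogen catabolite repression, whose median shift was −0.18. Over all genes outside chromosome XIII 0.899% were higher, so 1 member does not set this list apart. NCA3 was at 1.72 and 2.50 (shift 1.67), PHM7 at 1.53 and 1.87 (shift 1.26) and PIC2, for a mitochondrial phosphate and copper carrier, at 1.80 and 1.51 (shift 1.67), with adjusted p of 0.0119, 0.0012 and 0.0145. PIC2 overlaps the frame YER053C-A, and GPD1 the frame YDL023C, which were called with them.

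Genes of mitochondrial translation lay mostly above the other strains, by small amounts. Of 65 tested genes of mitochondrial ribosomal proteins outside chromosome XIII, 60 lay above the mean of the other strains on both arrays, with a median shift of 0.51 against −0.03 over all genes, and 3 passed the test. Over all 5116 genes, 1318 lay above on both arrays and 0.899% passed as higher. The list follows gene symbols and holds MRP8, which is no ribosomal protein. The 3 were MRPL31 (shift 0.87, adjusted p = 0.043), MRP35 (shift 0.79, adjusted p = 0.040) and MRPL19 (shift 0.68, adjusted p = 0.044). Against the reference they were at 0.84, 0.69 and 0.53 in disome XIII. In disome XIII-ubp6Δ they were near the reference, at 0.06, 0.19 and 0.14. This count had a wider range over the settings than those of the other lists, from 17 under normexp background correction to 0 with the replicate block, against strains of the same slides, or without either array of disome XIII. Leaving out both arrays of another disome gave 11 for disome XV, 9 for XII, 1 for I or V, and 0 for VIII or X. TUF1, for the mitochondrial translation elongation factor, was at 0.83 and 0.18, above all other disomes, which lay below 0 (shift 0.91, adjusted p = 0.004). Also higher than in the other strains was the copper chaperone gene COX17 (0.60 and 0.68, shift 1.104, adjusted p = 0.007). So were the mitochondrial tRNA synthetase genes MSM1 (0.49 and 0.34), MSR1 (0.46 and −0.08) and NAM2 (0.44 and 0.12). The assembly genes CBP4 (0.93 and 1.11), COX10 (0.54 and 0.23) and COX23 (1.17 and 0.19) were higher than in the other strains as well. None of 62 tested genes of the TCA cycle and respiratory chain off chromosome XIII passed with limma, and their median shift was 0.20.

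Amino acid synthesis genes leaned lower. Over all 5116 genes outside chromosome XIII, 1465 lay below the other strains on both arrays and 1.31% passed as lower. Of 62 tested members of the list of Gcn4-type genes outside chromosome XIII, 39 lay below the other strains on both arrays, with a median shift of −0.37, and 5 were lower: ARG1, ARG3, LEU1, BAT1 and LEU9. LEU9 is among the genes set apart here as strain markers. The number was 10 without the arrays of disome XV, 8 without those of disome XVI, and 2 and 0 without the array of disome XIII or of disome XIII-ubp6Δ, and 1 against strains of the same slides. ARG1, for argininosuccinate synthase, was at −1.98 and −3.52, below the ranges of −1.77 to 0.39 and −1.65 to 0.39 (shift −2.17, adjusted p = 0.0047). ARG3, for ornithine carbamoyltransferase, was at −2.67 and −2.65, next to lowest values of −2.45 and −2.41 in the others (shift −1.62, adjusted p = 0.0295). Both are repressed by the Arg80-Arg81-Mcm1 complex in the presence of arginine. LEU1 of leucine synthesis was at −1.66 and −1.36, and its adjusted p was 0.0246. Disome XV, on the same slide as disome XIII, was lower, at −1.68, as was disome XV-ubp6Δ, at −1.42. BAT1, for a branched-chain aminotransferase, was at −1.22 and −1.01 (shift −1.22, adjusted p = 0.025), with disome XV also at −1.22 but disome XV-ubp6Δ at −0.47. OAC1, a mitochondrial carrier gene also used in leucine synthesis, was at −1.66 and −1.82 (shift −1.38, adjusted p = 0.025).

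Ergosterol genes outside chromosome XIII included 6 of 24 that were lower, with a median shift of −0.47, beside 1.31% lower over all genes there. ERG1, for squalene epoxidase, was at −1.15 and −0.75 (shift −1.03, adjusted p = 0.048), and ERG28, a scaffold of the C-4 demethylation enzymes, at −1.37 and −0.57 (shift −1.16, adjusted p = 0.023). The others were ERG25 (−0.83), ERG26 (−0.67), CYB5 (−0.96) and the sterol importer gene AUS1 (−0.73). In contrast, the duplicated ERG8, ERG13, ERG5 and HMG1 were higher, with responses of 1.45, 0.94, 0.83 and 0.71. The number lower was 1 with the replicate block, 2 against the same slides, 3 without the arrays of disome XI, 3 without disome XIII-ubp6Δ and 0 without disome XIII.

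Of 52 tested members of the cell wall list, 2 were higher (YGP1 and NCA3) and 3 lower (SLT2, CHS1 and FLO1), with a median shift of −0.14, beside 0.899% higher and 1.31% lower over all genes outside chromosome XIII. SLT2, the kinase of the cell integrity pathway, was at −0.70 and −0.36, below all other strains on both arrays (shift −0.97, adjusted p = 0.008). Some genes outside that list, picked after their values were seen or among the 12 lowest, were lower too. PRM5, a membrane protein gene induced by pheromone and by cell integrity signalling, was at −1.88 and −1.58, while all other disomes were above 0 (0.08 to 1.91) and the other disomes-ubp6Δ ranged from −0.16 to 2.12. Its shift was −2.47 ± 0.441 (adjusted p = 0.0004, and −3.03 on the same slides). KDX1, for a kinase related to Slt2, was at −1.55 and −0.16 and was below all other strains in disome XIII only (shift −1.58, adjusted p = 0.0051). Also lower than in the other strains were the sensor gene MID2 (−0.83 and −0.11, shift −0.75) and GFA1, CHS6 and CHS7 of chitin synthesis. Against the reference GFA1 was at −0.15 and −0.10, CHS6 at −0.46 and −0.64 and CHS7 at −0.78 and 0.07. CHS1 of the list, a chitin synthase gene, was at −0.39 and −0.30, with a shift of −0.70. No separate list of chitin synthesis genes was counted.

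The 12 lowest also held ANB1 and SRL3. ANB1, for the form of translation factor eIF5A made without oxygen, was at −3.08 and −1.68, below −1.30 to 1.24 and −1.09 to 1.18 in the other strains (shift −2.32, adjusted p = 0.0037). SRL3 was at −1.04 in disome XIII and lay below all other strains on both arrays, whose lowest were at 0.13 and −0.15 (shift −1.79, adjusted p = 0.0122). Shifts of these 2 genes were −2.49 and −2.35 against strains of the same slides.

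The difference between disome XIII-ubp6Δ and disome XIII was set against the same difference in the other 11 pairs. The reference on the array of disome XIII-ubp6Δ was itself low in UBP6, so an effect of the deletion present in both dyes does not enter this difference, and neither does one shared by all pairs. The 2 arrays also differed in slide and in dye orientation, which cannot be told apart from the deletion within disome XIII. None of 5560 genes passed with limma (0%), 315 did so at an unadjusted p under 0.05, and 1 passed under normexp background correction. With 1 pair against 11, the test can see large departures only. Examples of values that parted between the versions were KDX1 (−1.55 and −0.16), ANB1 (−3.08 and −1.68) and MID2 (−0.83 and −0.11). The duplicated regulator genes MCM1, MSN2 and ARG80 lay 1.26, 1.67 and 1.41 above the mean of the other disomes in disome XIII. In disome XIII-ubp6Δ they lay 0.25, 0.83 and 0.10 above that of the other disomes-ubp6Δ. None of these genes passed after adjustment.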

How the data were processed

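RNA of each strain was hybridised with reference RNA on 2-colour arrays, read by the authors with Feature Extraction at default settings. The deposited intensity values are background-subtracted, dye-normalized processed signals and raw medians; the deposited log10 ratios are Cy5 over Cy3 per spot; the deposited value table of the authors is probably in log2. Here ratios were put on the log2 scale, control spots, outlier spots and those not above background in any dye were left out, spots were averaged by probe and then gene, and the sign of ubp6Δ arrays was turned. limma 3.58.1 in R 4.3.3 fitted a mean per genotype and a disome XIII term on all 24 arrays, with at least 8 other arrays per genotype. Members and gene lists were chosen with earlier results of these data known. Named genes were the 12 highest and 12 lowest past the test with a symbol, the 10 highest and lowest copy-number responses, up to 4 members of each list, and regulators on chromosome XIII; MID2 and values of further list members were added after they were seen. Alternatives changed background correction, filters, centring, blocks, sign and the arrays used. Disomes XIII, XIV and XV share a slide, as do ubp6Δ strains IX to XVI. The same disome number in both genotypes is the same karyotype: deviations correlated at −0.05 to 0.64 (median 0.32, 0.35 for XIII), above 0.1 in 11 of 12, against −0.04 between different disomes. The tests were also run on simulated data with independent noise for each gene and array. The correlation within slides (0.345) and within pairs of the same disome (0.289) was not simulated, so its effect on the calls was not checked there. Genes were named through RefSeq, and neither coordinates nor sequences were used. The number of arrays limits the precision.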

Additional observations from a re-analysis of the deposited data

How the results depend on the processing

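The 24 genes named among the highest and lowest outside chromosome XIII were picked as past the test with the same direction on both arrays. All 24 kept their direction under each alternative that gave a value, which follows largely from that choice. Of them, 22 passed with the replicate block (PHO5 and AHP1 did not), 20 with slide as a block and 12 against strains of the same slides. Normexp background correction with loess gave 188 genes outside chromosome XIII (92 higher), 1 gene for the UBP6 difference, and 28 copy-number responses below and 13 above 1. With a gene's own duplicated values kept in the other disomes, 65 genes passed (23 higher and 42 lower). The replicate block, with each disome and its ubp6Δ derivative paired, gave 64 (26 higher and 38 lower) and 3 responses below and 2 above 1. Strains of the same slides gave 59 (13 higher). Adjusted over the other chromosomes alone, 11 passed (6 higher and 5 lower). Genes measured on all 24 arrays gave 5 responses below and 3 above 1. With the sign as the dye labels give it, 0 genes passed (0 higher and 0 lower), 33 and 31 shifted beyond 0.5 the same way, and the duplicated genes of disome XIII-ubp6Δ had a mean of −0.90; this follows from the turned sign. A shift of 1 in place of 0.5 left 26 genes up and 46 down. Slide as a block gave 54 higher and 94 lower, of which 35 and 54 had passed before. Leaving out 1 array of disome XIII, or both arrays of another disome, gave 19 to 172 genes outside chromosome XIII (8 to 80 higher and 11 to 92 lower), 177 to 334 on it, 3 to 13 responses below 1 and 1 to 9 above, and 115 to 153 genes shifted up and 174 to 208 down on both arrays. The cause of these differences was not tested. With 1 array left, that strain is assumed to vary like the others. The copy-number test with slide as a block or on the same slides, the UBP6 difference with 1 array of disome XIII or with a replicate block, and shared shifts with 1 array were not run. Dim genes and genes with near-identical copies are limited by signal and cross-hybridisation.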

Other observations

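Of 10 histone genes tested, 1 passed: HHT1, for histone H3, at 0.90 and 0.54 (shift 0.83, adjusted p = 0.038 by limma). The list had a median shift of 0.57, with 6 genes above and 0 below the other strains on both arrays. Over all 5116 genes outside chromosome XIII, 1318 lay above and 1465 below on both arrays. Purine synthesis genes leaned the other way, with a median shift of −0.39 over 22 genes, 0 of which passed. Of 59 cytosolic chaperone genes 2 were lower and 0 higher, with a median shift of −0.08, and of 39 genes of ER folding and secretion 1 was lower and 0 higher, with a median of −0.11. Over all genes outside chromosome XIII 1.31% were lower and 0.899% higher, so counts this small do not set these lists apart. The genes called lower were EUG1 (−0.88 and −0.87, shift −0.78) of the second list and BTN2 (−0.78 and −0.81, shift −1.19) and AHA1 (−0.72 and −0.73, shift −0.71) of the first. Each was the lowest of its genotype on both arrays, which follows in part from its being called. Cytosolic ribosomal protein genes off chromosome XIII had a median shift of −0.07 over 126 genes and proteasome genes one of −0.02 over 44, with 0 called in either list. BAR1, the protease gene of a cells that removes α-factor, was lowest of both groups, at −1.64 and −2.10 (adjusted p = 0.106). Of 83 tested genes of the study's protein signature of aneuploidy outside chromosome XIII, 2 (AHP1 and PRX1) were higher and 1 (HMF1) lower, beside 0.899% and 1.31% over all genes there; the list was chosen on strains of this study.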
